A study of Mus musculus with 8 samples.

Results

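The 10 genes described here are genes that ERK signalling is known to switch on in many cell types. They are the phosphatase genes Dusp1, Dusp4 and Dusp6, the inhibitor genes Spry2, Spry4 and Spred1, the ETS factor genes Etv4 and Etv5, and the immediate-early factor genes Egr1 and Fosl1. They were taken by name from the 19937 genes of the array, each read from its probe set with the highest mean level. All 10 were measured, and none was lost to a filter on low values. Each lay above a log2 level of 6.50 in its mean over all arrays. Below that level lay 95% of the 1194 genes for olfactory and vomeronasal receptors, a class that stem cells are not known to use.

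RNA came from R1, a line of male mouse embryonic stem cells of the strain background 129X1 x 129S1, derived from the inner cell mass of a blastocyst. Cells were transfected with pLKO.1 shGFP, a plasmid that encodes a hairpin against a jellyfish gene these cells lack (4 arrays), or with pLKO.1 shMKRN1, which encodes a hairpin against Mkrn1 (4 arrays). Both groups were cultured on gelatin with LIF and 15% serum. Plasmid (2 µg) was given 48 h after seeding, selection with puromycin at 2 µg/mL lasted 4 days, and RNA was taken on day 6 after transfection. Each sample is a puromycin-resistant population and not a clone, and each target had 1 hairpin in 1 cell line. The labels do not say that the 4 samples of a group were transfected separately, and the spread that p-values are based on may therefore be technical. The arrays bear the numbers of their titles. The hairpin that sets the groups apart is shown here because every comparison rests on it.
shMKRN1: gcgagatgttgcttatgcttt

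ERK is the last kinase of a cascade in which fibroblast growth factors bind receptors, receptors load RAS through adaptor proteins, and RAS acts through RAF and MEK. In mouse embryonic stem cells this cascade, driven largely by FGF4, is known for moving cells out of the naive state, while LIF holds them in it. Many genes that ERK induces encode proteins that shut the cascade down again, so their transcripts are widely used as a readout of recent ERK activity. DUSP proteins remove the activating phosphates from ERK and related kinases, and Sprouty and SPRED proteins act higher up, between the receptor and RAF. ETV4, ETV5, EGR1 and FOSL1 are transcription factors that carry the signal to further genes.

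Mkrn1 (Entrez gene 54484), which encodes a ubiquitin ligase that also binds mRNA, was the target of the hairpin. Its log2 levels were 10.45, 10.45, 10.51 and 10.34 on arrays shGFP 1, 3, 5 and 7, and 9.81, 9.81, 9.86 and 9.88 on arrays shMKRN1 2, 4, 6 and 8. All 4 hairpin arrays lay below all 4 controls, and 66.2% of the control level remained (95% interval 61.0% to 71.7%; limma adjusted p = 0.000767). Over all 19937 genes, 896 passed limma at an adjusted p of 0.05, 729 higher and 167 lower in shMKRN1. The split was 617 higher and 431 lower after quantile normalization, and 445 and 192 after median centring. On the leading principal component (37.6% of the variance) array shGFP 7 and array shMKRN1 8 stood apart from the rest of their groups. All 11 stem cell markers, such as Pou5f1 and Sox2, lay above the receptor range, and 1 of them passed limma: Nanog rose by 0.25 (adjusted p = 0.0256). Of 11 fibroblast markers 7 did, and Lum, Postn, Prrx1 and S100a4 did not. Of the 11, 2 passed the test, both upward: Col1a1 (0.37) and Pdgfrb (0.35) rose (limma adjusted p = 0.0486 and 0.0342). The mean level of the fibroblast markers per array ran from 6.66 to 6.84 in shGFP and from 6.70 to 6.88 in shMKRN1, and its part in the results below was not tested. All 8 primitive endoderm markers lay above the receptor range and none passed limma at the adjusted threshold (2 did at an unadjusted p under 0.05).

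Upstream sequence is given for Dusp1 and Spred1, since they are the genes with an entry in the RefSeq promoter table (GRCm38.p6) whose groups did not overlap on the arrays. That table had an entry for 5 of the 10 genes, namely Dusp1, Dusp6, Spry2, Spred1 and Etv5, the last with 2 starts. The windows hold the 250 bases before the annotated start, read 5′ to 3′ on the gene's strand, at chr17:26508473-26508722 (minus strand) for Dusp1 and chr2:117120821-117121070 (plus strand) for Spred1. Capitals mark matches on either strand to a cyclic AMP response element (TGACGTCA) or a GC box (GGGCGG), and no match shares a base with another.
Dusp1: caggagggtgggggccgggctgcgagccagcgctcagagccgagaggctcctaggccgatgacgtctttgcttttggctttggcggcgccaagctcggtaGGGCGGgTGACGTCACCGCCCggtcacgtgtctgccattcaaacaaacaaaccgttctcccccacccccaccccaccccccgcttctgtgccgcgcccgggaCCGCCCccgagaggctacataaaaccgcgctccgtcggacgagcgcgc
Spred1: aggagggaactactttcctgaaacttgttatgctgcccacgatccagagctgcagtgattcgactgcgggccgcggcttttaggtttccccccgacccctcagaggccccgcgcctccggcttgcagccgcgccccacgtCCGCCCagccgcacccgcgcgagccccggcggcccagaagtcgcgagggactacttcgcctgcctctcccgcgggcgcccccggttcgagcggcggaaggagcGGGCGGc

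The Dusp1 window held 1 cyclic AMP response element, which reads the same on both strands and ends 136 bases before the start, and 3 GC boxes. The Spred1 window held 2 GC boxes and none of the other motifs searched. Of 32851 windows of the same length, 1.55% held the cyclic AMP response element and 32.7% a GC box. A CArG box, the site of serum response factor, was in 1.47% of all windows, the ETS core CCGGAA in 12.0% and the AP-1 site TGANTCA in 6.75%. None of the 6 windows of the 5 genes held any of these last 3 motifs. A match is a description of letters, and factor binding was not measured.

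None of the 10 genes passed limma at an adjusted p of 0.05, against 4.49% of all genes (3.66% higher and 0.838% lower). At an unadjusted limma p under 0.05 there were 5, against 19.5% of all genes and 27.3% of the 9968 genes above the median level, to which all 10 belong. These 5 were Dusp1, Dusp4 and Spred1, higher in shMKRN1 (13.7% of all genes), and Spry4 and Fosl1, lower (5.78%). They were also the 5 whose groups did not overlap, against 14.1% of all genes and 21.9% of those above the median level. Over all genes, 10.6% lay apart with shMKRN1 higher and 3.51% with shMKRN1 lower. The changes of the 10 genes ran from -0.26 to 0.32 on the log2 scale, with a median of 0.07, against 0.01 over all genes and 0.04 over those above the median level. Their median size, without sign, was 0.17, against 0.08 in both of those sets. Adjusted p-values of 0.054 for Spry4, 0.0606 for Spred1 and 0.0691 for Fosl1 lay just above the threshold. By p, Spry4 ranked 951 among the 19937 genes.

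**Figure D1:**
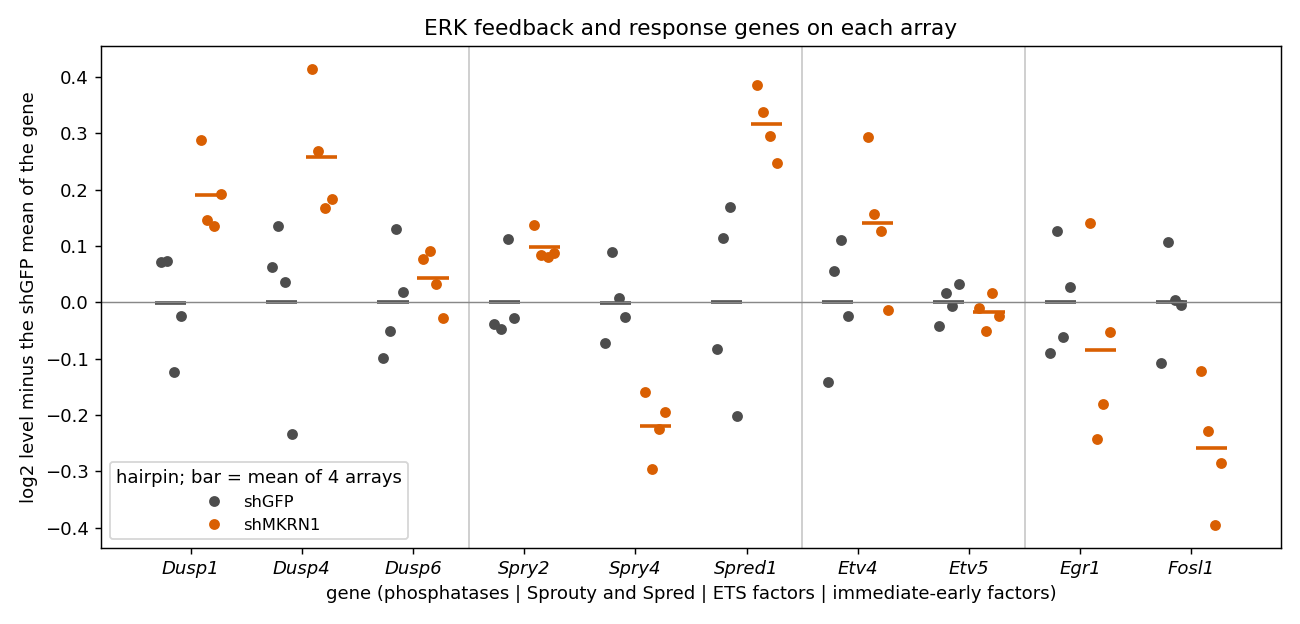
Each point is 1 array, with the log2 level of a gene minus its mean over the 4 shGFP arrays on the vertical axis, the 10 genes along the horizontal axis, and bars at group means. The shMKRN1 points lie above every shGFP point for Dusp1, Dusp4 and Spred1 and below every one for Spry4 and Fosl1, while the groups of the other 5 genes overlap.

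Of the phosphatase genes, Dusp1 and Dusp4 had higher means in shMKRN1 and Dusp6 was nearly level. Dusp1 encodes a nuclear phosphatase of ERK, p38 and JNK that stress and growth factors induce. Its log2 levels were 11.10, 11.10, 10.90 and 11.00 on arrays shGFP 1, 3, 5 and 7, and 11.31, 11.17, 11.16 and 11.22 on arrays shMKRN1 2, 4, 6 and 8. The lowest hairpin array lay 0.06 above the highest control, and the change was 0.19 (SE 0.062; limma adjusted p = 0.117; exact permutation p = 0.0286, the smallest that 4 against 4 arrays allow). That is 114% of the control level, with a 95% interval of 104% to 126%.

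Dusp4 encodes a related nuclear phosphatase. It measured 9.34, 9.41, 9.31 and 9.04 on the shGFP arrays in the same order, and 9.69, 9.55, 9.44 and 9.46 on the shMKRN1 arrays. Array shGFP 7 was the lowest by a wide margin, and only 0.03 separated the groups. The change of 0.26 (SE 0.087; limma adjusted p = 0.131) was 0.18 without shGFP 7. After quantile normalization the groups overlapped.

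Dusp6 encodes a cytoplasmic phosphatase with a strong preference for ERK and is widely read as an ERK target gene. It measured 10.40, 10.45, 10.63 and 10.52 in shGFP and 10.58, 10.59, 10.53 and 10.47 in shMKRN1. All 4 hairpin arrays lay within the range of the controls. The change was 0.04 (SE 0.061; limma adjusted p = 0.77), and its 95% interval ran from -0.09 to 0.18, so a shift of up to 1.13-fold upward lies inside it. For every pair of these phosphatase genes, the log2 ratios of the groups overlapped. The log2 ratio of Dusp4 to Dusp6 shifted by 0.22 (exact permutation p = 0.143) and that of Dusp1 to Dusp6 by 0.15 (exact permutation p = 0.229). Between Dusp1 and Dusp4 it shifted by -0.07 (exact permutation p = 0.514).

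The means of Spred1 and Spry2 were higher in shMKRN1 and that of Spry4 was lower. Spred1 encodes an inhibitor that brings the RAS inactivator neurofibromin to the membrane, and it had the largest change of the 10 genes. Its levels were 9.19, 9.39, 9.44 and 9.07 in shGFP and 9.66, 9.61, 9.57 and 9.52 in shMKRN1. The hairpin arrays were tightly grouped (SD 0.059) and all above the more scattered controls (SD 0.172), of which shGFP 7 was again the lowest. The change was 0.32 (SE 0.082; limma adjusted p = 0.0606), or 1.25-fold with an interval of 1.10 to 1.41, and it was 0.25 without shGFP 7. Without shGFP 5, the highest control, it was 0.37 and passed (limma adjusted p = 0.0397).

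Spry4, a Sprouty gene that FGF signalling induces, was lower. It measured 10.83, 11.00, 10.91 and 10.88 in shGFP and 10.75, 10.61, 10.68 and 10.71 in shMKRN1. The highest hairpin array stayed 0.09 under the lowest control, the widest gap among the 10 genes. The hairpin arrays held 85.9% of the control level (95% interval 79.0% to 93.5%), a log2 change of -0.22 (SE 0.055; limma adjusted p = 0.054).

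Spry2, whose protein holds back receptor signalling to RAS and RAF, measured 10.01, 10.00, 10.16 and 10.02 in shGFP and 10.19, 10.13, 10.13 and 10.14 in shMKRN1. Without shGFP 5, the other controls lay below every hairpin array; with it the groups overlapped. The change was 0.10 (SE 0.053; limma adjusted p = 0.356). Within each array, the log2 ratio of Spry2 to Spry4 was above every control in each shMKRN1 array, by 0.32 on average. Set to 0 at the control mean, that ratio ran from -0.14 to 0.11 in shGFP and from 0.28 to 0.38 in shMKRN1. The ratio of Spry4 to Spred1 was lower in all 4, with a shift of -0.53. Both shifts had an exact permutation p of 0.0286, the smallest possible, and 0.114 after Benjamini-Hochberg adjustment over the 8 pairs compared within the 4 classes of genes. The groups did not overlap for these 2 of the 8 pairs. For Spry4 to Spred1 this was fixed in advance, as was its permutation p. The groups of each gene already lay apart, in opposite directions, so the ratio is not a further result. For Spry2 to Spred1 the shift was -0.22 (exact permutation p = 0.0571, adjusted 0.152). A ratio within an array shows unequal change and not which gene moved.

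**Figure D2:**
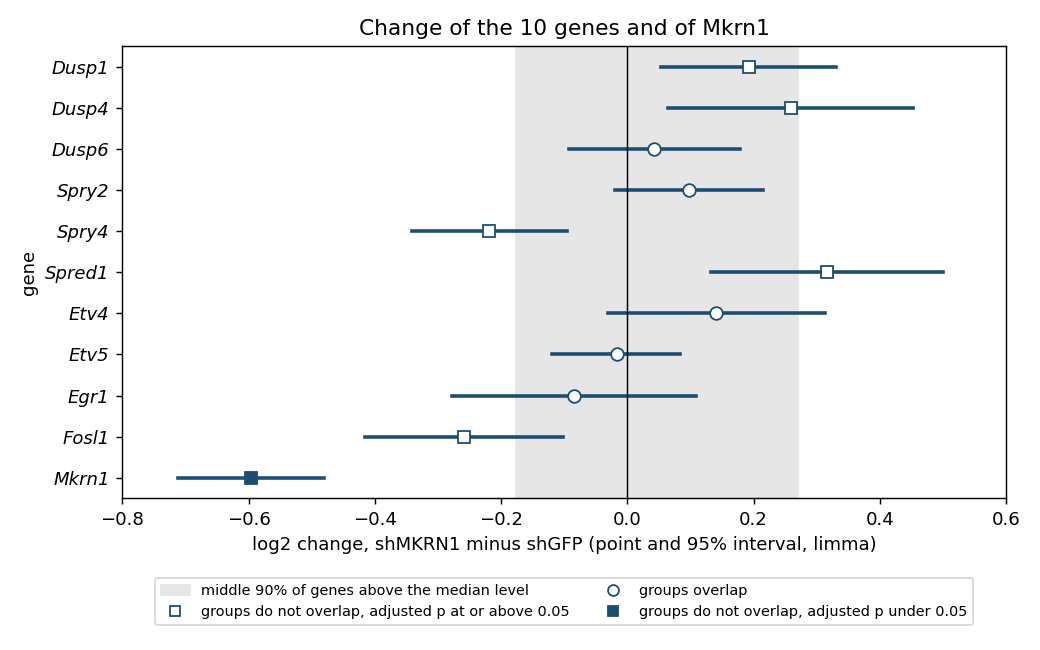
The horizontal axis gives the log2 change (shMKRN1 minus shGFP) of each of the 10 genes and of Mkrn1, with 95% limma intervals, 4 arrays a group. The intervals of Dusp1, Dusp4, Spry4, Spred1 and Fosl1 do not reach 0, yet only Mkrn1 has an adjusted p under 0.05; the grey band, from -0.18 to 0.27, holds the middle 90% of genes above the median level.

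For both ETS factor genes the groups overlapped, and neither gene passed limma. Etv4 and Etv5 encode related factors of the PEA3 group that FGF signalling induces. The probe set kept for Etv5 measured 11.95, 12.01, 11.99 and 12.03 in shGFP and 11.98, 11.94, 12.01 and 11.97 in shMKRN1. The 8 arrays lay close together and the groups overlapped. The change was -0.02 (SE 0.046; limma adjusted p = 0.885), with an interval of -0.12 to 0.08. Of 2 probe sets that the platform annotation gives as Etv5, the brighter one (10363901) was kept. The other (10438626) had means of 10.80 in shGFP and 10.77 in shMKRN1, and differed by -0.03. The number of the kept set lies close to that of Dusp6 (10366043), on chromosome 10, while Etv5 lies on chromosome 16. The number of the other lies between those of Spry2 (10422227, chromosome 14) and Dusp1 (10449284, chromosome 17). The kept set may therefore not measure Etv5. That was not checked against a genome, and it bears on the levels given here and on the ratio to Etv4. Etv4 measured 8.46, 8.65, 8.71 and 8.57 in shGFP and 8.89, 8.75, 8.72 and 8.58 in shMKRN1. Array shMKRN1 8 lay among the controls and the other hairpin arrays above them. The change was 0.14 (SE 0.077; limma adjusted p = 0.364), and the log2 ratio of Etv4 to Etv5 shifted by 0.16 (exact permutation p = 0.143).

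Of the immediate-early genes, Fosl1 was lower and Egr1 scattered. Fosl1 encodes FRA-1, a FOS-related partner in AP-1 that lasting ERK activity is known to raise. It measured 8.02, 8.23, 8.13 and 8.12 in shGFP and 8.001, 7.89, 7.73 and 7.84 in shMKRN1. The groups came within 0.015 of each other, at shGFP 1 and shMKRN1 2. The hairpin arrays held 83.6% of the control level (95% interval 75.0% to 93.2%), a log2 change of -0.26 (SE 0.07; limma adjusted p = 0.0691).

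Egr1 encodes a zinc finger factor that appears within minutes of ERK activation and decays as quickly. It measured 8.79, 9.01, 8.82 and 8.91 in shGFP and 9.02, 8.64, 8.70 and 8.83 in shMKRN1. The highest value of all, on shMKRN1 2, and the lowest, on shMKRN1 4, were both hairpin arrays. The change was -0.08 (SE 0.087; limma adjusted p = 0.674). For the log2 ratio of Egr1 to Fosl1 the shift was 0.17 (exact permutation p = 0.114).

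The arrays of a group differed in how the 10 genes lay on them. On shGFP 3 there were 8 of the 10 genes above their control mean, and on shGFP 1 there were 2. On shMKRN1 2, 7 of 10 were above, with a median deviation of 0.14, the highest of the 8 arrays; that array held the highest level of Dusp1, Dusp4, Spry2, Spred1, Etv4 and Egr1. On shMKRN1 8 there were 4 above. With the arrays shGFP 7 and shMKRN1 8 both left out, a setting chosen after the data were seen, none of the 10 passed limma, against 4.6% of all genes. The changes were then 0.18 for Dusp1, 0.21 for Dusp4, 0.27 for Spred1, -0.23 for Spry4 and -0.25 for Fosl1.

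Whether these genes were called depended on how the test was set up. The number past the threshold was 0 as deposited, 2 after median centring (Spry4 and Fosl1), 3 after quantile normalization (with Spred1) and 4 with a variance trend and robust estimate (with Dusp1). With only genes above the median level it was 4 as well. All genes were called at 3.2%, 5.26%, 7.77% and 16% in these 4 settings. With array weights it was 3 (Spry4, Spred1 and Fosl1; 13.8% of all genes). With the mean of all probe sets of a gene it was 0 (4.41%), as with adjustment over every probe set (1.9%). Without shGFP 5 it was 1, Spred1 (3.76%), as with arrays of neighbouring numbers taken as a block (7.25%), a pairing that no label states. Without shGFP 1, 3 or 7 it was 0 (2.53%, 1.63% and 4.27% of all genes), as without shMKRN1 2, 4, 6 or 8 (1.77%, 1.94%, 1.55% and 3.86%). Spred1 passed in 6 of 17 alternatives, Spry4 and Fosl1 in 5 each and Dusp1 in 2. Dusp4, Dusp6, Spry2, Etv4, Etv5 and Egr1 passed in none of them. The sign of every one of the 10 changes was the same in all 17.

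**Figure D3:**
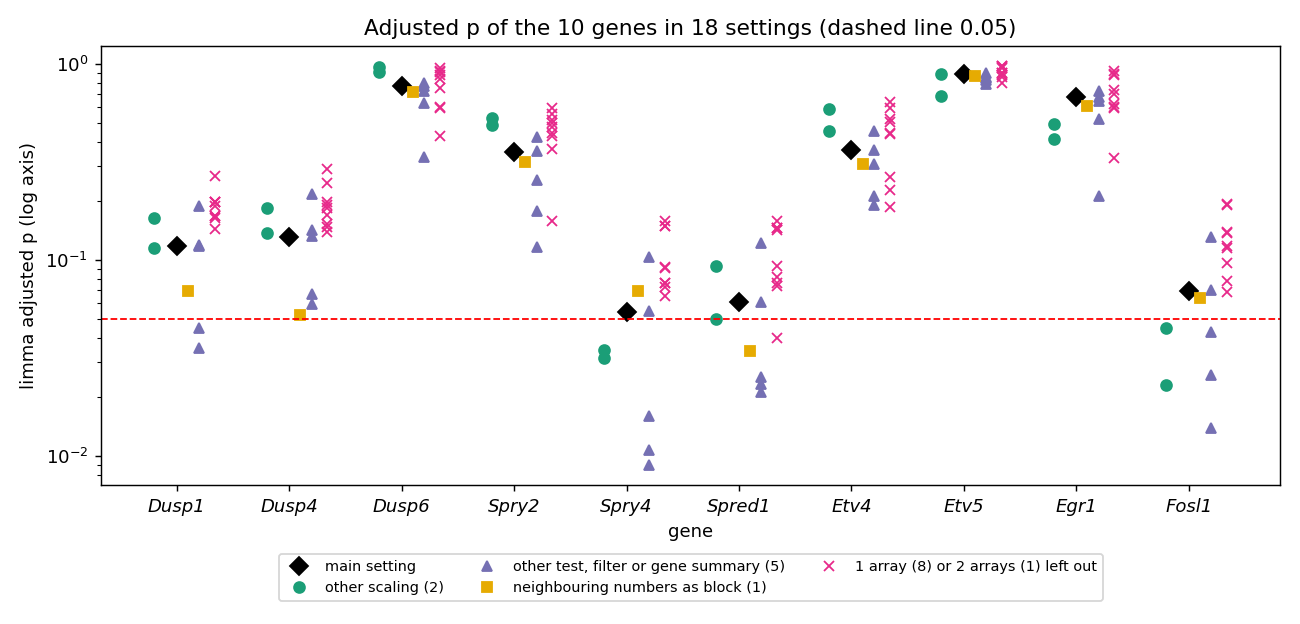
The vertical log axis gives the limma adjusted p of each gene under the main setting and 17 alternatives, with a dashed line at 0.05. Spry4, Spred1 and Fosl1 lie on both sides of the line (0.00892 to 0.158, 0.0212 to 0.158 and 0.0138 to 0.192 over the alternatives), while Dusp6, Spry2, Etv4, Etv5 and Egr1 stay above 0.1 throughout.

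Other negative regulators, of the cascade or of kinases related to ERK, gave no call either, against 4.49% of all genes. They are called other feedback regulators below, whichever of these kinases they act on. The list holds 7 further phosphatase genes, Spry1, Spry3, Spred2, Spred3, Il17rd and Errfi1, 13 in all. At an unadjusted limma p under 0.05 there were 4, or 30.8%, all higher in shMKRN1, against 19.5% of all genes (13.7% higher). Among genes above the median level, to which 11 of the 13 belong, that share was 27.3%. A higher mean in shMKRN1 was found for 10 of 13 (76.9%), against 52.8% of all genes and 63.4% of those above the median level, and for 8 of 13 after quantile normalization. Il17rd, which encodes the FGF receptor antagonist SEF, lay between 9.33 and 9.43 in shGFP and between 9.52 and 9.66 in shMKRN1. Its groups did not overlap, and the change was 0.19 (SE 0.052; limma adjusted p = 0.0675). Spry1 differed by 0.26, Dusp5, a nuclear ERK phosphatase gene, by 0.22, and Errfi1, an inhibitor of EGF receptor signalling, by 0.14 (limma adjusted p = 0.146 to 0.233). Spry1 overlapped through shGFP 7, its highest control at 9.42, where Spred1 and Dusp4 were at their lowest.

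Of 28 other ERK-responsive and immediate-early genes, 2 passed limma, 1 in each direction (7.14%, against 4.49% of all genes). The list keeps this name, though Elk1, Elk3 and Elk4 in it encode factors that ERK acts on as proteins. With only genes above the median level tested, it was 2 of 22 (9.09%, against 16% of all genes in that setting). Myc, a growth-promoting factor whose transcript responds to both ERK and LIF signals, fell. Its levels were 10.85, 10.92, 10.81 and 10.87 in shGFP and 10.70, 10.51, 10.51 and 10.57 in shMKRN1, with no overlap. The change was -0.29 (SE 0.057, limma adjusted p = 0.0221). The Myc call was lost without any 1 of shGFP 1, shGFP 3, shMKRN1 4 and shMKRN1 6 (limma adjusted p up to 0.0832). It was also lost with adjustment over every probe set (0.0548) and without shGFP 7 and shMKRN1 8 together (0.0515). Klf10, a zinc finger gene that TGF-beta also induces, rose by 0.20 (SE 0.046; limma adjusted p = 0.0372). Its call was lost whichever array was left out, and under both other scalings (limma adjusted p up to 0.133). The Klf10 call was also lost with adjustment over every probe set (0.0725) and without shGFP 7 and shMKRN1 8 together (0.0624). The median change of the list was -0.02, with 13 genes of higher mean and 15 of lower. Phlda1, named after its value was seen, had the largest change of the list (-0.41) with overlapping groups (limma adjusted p = 0.184). It passed with array weights and with neighbouring numbers as a block.

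Of 25 FGF, RAS and ERK pathway genes, 3 passed limma (12%, against 4.49% of all genes), all higher in shMKRN1 (3.66% of all genes). The list also holds the RAS inactivator genes Nf1 and Rasa1, and Rps6ka3, a kinase gene downstream of ERK. Nf1 (0.14), Rasa1 (0.04) and Rps6ka3 (0.11) had higher means in shMKRN1 as well. A further 8 genes of that list were not analysed here. With only genes above the median level tested, 4 of 23 passed (17.4%), close to the 16% of all genes in that setting. Map2k1 encodes a MEK kinase, the direct activator of ERK. Its levels were 9.82, 9.79, 9.73 and 9.79 in shGFP and 10.14, 10.05, 10.16 and 10.13 in shMKRN1. The groups lay 0.23 apart, and the change of 0.34 (SE 0.049; limma adjusted p = 0.00541) kept its call without each array in turn (up to 0.0291). Fgfr2, an FGF receptor gene, rose by 0.36 (SE 0.064; limma adjusted p = 0.0139), a call lost without shMKRN1 6 (0.0557). The ligand gene Fgf8 rose by 0.46 (SE 0.086; limma adjusted p = 0.0175), from 8.14, 8.16, 8.21 and 8.47 to 8.73, 8.62, 8.61 and 8.86. That call was lost without shGFP 1, shGFP 3 or shMKRN1 2 (up to 0.0662), and with adjustment over every probe set (0.0523). Array shGFP 7 was the highest control for Fgf8 and the lowest for Fgfr2. In all, 23 of the 25 genes had a higher mean in shMKRN1 (92%, against 52.8% of all genes and 63.4% of those above the median level); after quantile normalization it was 19 of 25 (76%, against 47.6%). The median change was 0.10 as deposited and 0.05 after quantile normalization. Whether this list differs from the 10 feedback and response genes was not tested.

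**Figure D4:**
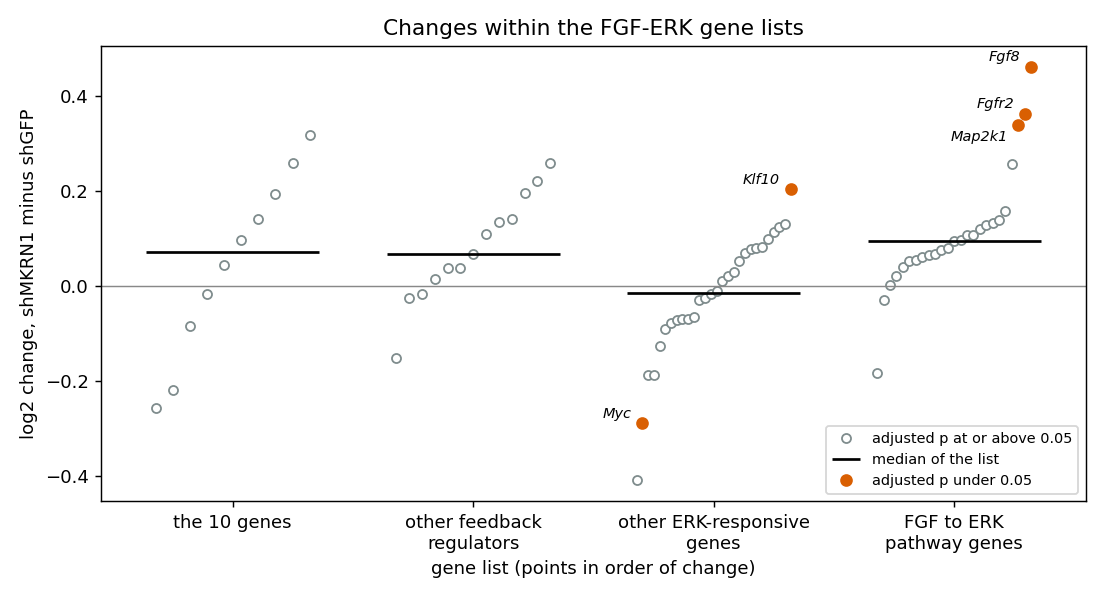
Each point is a gene, placed by its log2 change (shMKRN1 minus shGFP) in 4 lists: the 10 genes, 13 other feedback regulators, 28 other ERK-responsive genes and 25 genes from ligand to kinase. Filled points passed limma at an adjusted p of 0.05 (Myc, Klf10, Fgf8, Fgfr2 and Map2k1), and the medians of the lists run from -0.02 to 0.10.

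Profiles over the 8 arrays most like those of Spry4, Spred1 and Fosl1 came from genes outside these lists. Likeness was measured as the root mean square difference of log2 profiles, each centred on its own mean, over 9700 named genes above the median level. Closest to Spry4 were Slc29a4, a monoamine transporter gene (difference 0.034), the protease gene Prss16 (0.038) and Msantd3 (0.040). Closest to Spred1 were Phkb, a phosphorylase kinase subunit gene (0.041), the mitotic kinase gene Nek2 (0.045) and the peroxisomal import gene Pex13 (0.049). Closest to Fosl1 were Slco4a1, an organic anion transporter gene (0.040), the zinc finger gene Zfp93 (0.042) and Syndig1 (0.053). Of these 9 genes, Phkb (0.30), Pex13 (0.33), Slco4a1 (-0.30) and Syndig1 (-0.25) passed limma (adjusted p = 0.0466, 0.0318, 0.0287 and 0.0389). All genes were called at 4.49%. The 9 were picked for profiles that include the group shift, so these calls follow from the choice and are not a further result.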

How the data were processed

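The authors deposited log2 expression values of 34760 probe sets on 8 arrays, which, per the submitters' processing notes, RMA produced, with no version named. RMA normalizes between arrays, so a change shared by most genes would not be visible. The number of arrays limits the precision. Platform annotation gave 21640 probe sets 1 symbol. For genes with several probe sets, the one with the highest mean was kept, leaving 19937 genes.

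Groups were compared with limma 3.58.1 in R 4.3.3 (6 residual and 4 prior degrees of freedom, no filter, no covariate), two-sided, with Benjamini-Hochberg adjustment over all genes and a threshold of 0.05. The code of the fit was tested on simulated data with independent noise for each gene and array. That setting lacks the differences between arrays seen here. Exact two-sided permutation tests (scipy 1.17.1) used the 70 assignments of arrays to groups. Intervals are at 95%.

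The 10 genes, the lists and the tests were chosen with earlier results of these data known; the 8 pairs and the settings without 2 arrays and with neighbouring numbers as a block were added after the values were seen. Outside the 10 genes and Mkrn1, the text names every called gene of the 3 pathway lists, or the 4 with the smallest p where none was called, and 3 similar profiles each for the 3 of the 10 genes with the smallest p. Nf1, Rasa1, Rps6ka3, Elk1, Elk3 and Elk4 are named for what they encode. The older symbol Cyr61 was matched to Ccn1. The 17 alternatives comprised 2 scalings, 5 other tests, filters or summaries, 1 block of neighbouring array numbers, each array left out, and 2 arrays left out together. Promoter windows are RefSeq's (GRCm38.p6); 5 of the 10 genes matched.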

Additional observations from a re-analysis of the deposited data

Results flagged for a closer look

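In 32 groups of 4 arrays (16 named genes), 3 held an array far from the other 3 of its group; chance flags about 1 group in 20. For Spry2 these were array shGFP 5 at 10.16, above the other controls, and array shMKRN1 2 at 10.19, above the other hairpin arrays. For Fgfr2 it was array shGFP 7 at 8.84, below the other controls.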

How the results depend on the processing

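The count of 896 genes was 1595 with only genes above the median level (16% of those tested) and 1549 with trend and robust estimation (7.77%). It was 2757 with array weights (13.8%), 378 adjusted over every probe set (1.9%) and 309 to 852 without 1 array (1.55% to 4.27%). Without shGFP 7 and shMKRN1 8 (chosen after seeing the data) it was 917 (4.6%). After median centring 3.2% of all genes passed, and after quantile normalization 5.26%. Of the 10 genes, 0 passed; 2 did after median centring, 3 after quantile normalization, 4 with only genes above the median level, 4 with trend and robust estimation, 3 with array weights, and 0 to 1 without 1 array. Of the 13 other feedback regulators, 0 passed, and 0 did without any 1 array. With only genes above the median level it was 1 of the 11 tested (9.09%, against 16% of all genes). With trend and robust estimation it was 1 (7.69%, against 7.77%), and with array weights 3 (23.1%, against 13.8%). Of the 28 other ERK-responsive genes, 2 passed; it was 1 after either scaling, 0 adjusted over every probe set, 0 without shGFP 7 and shMKRN1 8, and 0 to 1 without 1 array. Of the 25 pathway genes, 3 passed; it was 5 with trend and robust estimation, 5 with array weights and 2 to 4 without 1 array. The filter tests fewer genes and the fits without an array hold fewer samples; for the other settings the cause was not tested. None of the 10 genes, Mkrn1, Myc, Klf10, Fgf8, Fgfr2 and Map2k1 reversed its sign in any of the 17 alternatives. The groups share no replicate number (shGFP 1, 3, 5 and 7, shMKRN1 2, 4, 6 and 8), and no label pairs neighbouring numbers. With neighbours (1 and 2, and so on) taken as a replicate block, also chosen after seeing the data, 1446 genes passed (7.25% of all). Among the lists it was 1 of the 10 (Spred1, limma adjusted p = 0.0341), 2 of the 13, 3 of the 28 and 4 of the 25. Deviations from the group means correlated at 0.13, -0.05, 0.26 and 0.64 within the 4 neighbouring pairs, across genes, which are not independent replicates. For pairs that are not neighbours they ran from -0.53 (shGFP 7 with shMKRN1 4) to 0.41 (shGFP 5 with shMKRN1 4). These values do not settle whether the numbers pair the samples, and the main fit used no block. The labels give no batch.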
